A study of Mus musculus with 8 samples.

Results

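The genes that carry the insulin signal from the receptor to the glucose transporter GLUT4 were followed in 3T3-L1 adipocytes, cultured fat cells derived from mouse embryonic fibroblasts, both untreated and under tunicamycin. The 10 genes, Insr, Irs1, Irs2, Pik3r1, Pik3ca, Akt1, Akt2, Tbc1d4, Slc2a4 and Gsk3b, were taken as every probe set that the platform annotation gives to them, which made 32 of the 45101 probe sets on the array. Tunicamycin blocks N-linked glycosylation of proteins in the endoplasmic reticulum (ER) and is used to cause ER stress. Control samples gave 4 of the 8 arrays, namely 1 for the 4 h time, 2 for 8 h and 1 for 12 h, and tunicamycin samples the other 4, with 1 for 4 h, 1 for 8 h and 2 for 12 h. All were the same cell line, no genotype or other agent is named, and the sources used here do not give the dose, the vehicle or the day of differentiation.

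Insulin binding turns on the tyrosine kinase of its receptor, which phosphorylates the docking proteins IRS1 and IRS2. These recruit PI3 kinase, a heterodimer of a regulatory and a catalytic subunit, whose lipid product brings the kinase AKT to the membrane and to activation. In fat cells AKT2 then inactivates AS160, the product of Tbc1d4, so that vesicles holding GLUT4 move to the cell surface, and AKT also switches off the kinase GSK3, which releases glycogen synthase.

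Values are normalized intensities, the deposited array values after quantile normalization. Differences are log2 fold changes of tunicamycin over control from limma, given with their standard error (SE), and a gene was called at a Benjamini-Hochberg adjusted p under 0.05 over all 10916 tested genes. One probe set, the brightest, stands for each gene. Of the 10 genes, 9 passed the filter on low intensity and Irs2 did not. The arrays measure RNA of a whole culture, so fewer cells of a type and less RNA per cell cannot be told apart.

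The treatment showed on the arrays: the stress genes Ddit3, Hspa5 and Herpud1 rose by 3.19, 1.40 and 3.62 over all times (limma, adjusted p up to 3.74e-05). Fat cell identity was present, with Adipoq at 8450 or above in every control. Of 10 adipocyte markers on the array, 9 were tested. With tunicamycin 0 were called higher and 5 lower (Pparg, Cebpa, Cd36, Retn and Cidec), against 11.1% and 9.68% of all tested genes. The summed intensity of the 10 markers was 40460 to 47550 in controls and 33770 to 45410 with tunicamycin. Leptin, a hormone of mature fat cells, was at 0 on 5 arrays. Of 10 preadipocyte and fibroblast markers 1 was higher and 2 lower, with sums of 35460 to 41170 and 31300 to 36520. Of 6 macrophage and leukocyte markers, 3 were tested and 0 called by limma (0 also at an unadjusted p under 0.05), with sums of 229 to 485 and 235 to 422. None of 4 endothelial markers passed the filter, and Pecam1 was at 0 on all 8 arrays. The tunicamycin array at 4 h stood apart in the RNA quality probes, with a 3' to 5' signal ratio of 43.5 for pyruvate carboxylase against 12.2 to 15.3 in controls. The ratio of the hybridisation controls BioC to BioB was 3.50 to 3.94 at 4 h and 8 h and 1.52 to 1.60 at 12 h, and the labels name no batch. Single times rest on 1 or 2 arrays a group, so a gene's own spread comes only from the replicate pairs of control at 8 h and tunicamycin at 12 h. limma joins that spread, with 2 degrees of freedom, to a value drawn from all tested genes, which counts for 6.37.

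The first question was which of these genes differed with tunicamycin over all times. Irs1, Pik3r1 and Tbc1d4 fell and Gsk3b rose, so the calls lay at the docking protein, the regulatory subunit of PI3 kinase, the regulator of GLUT4 vesicles and a kinase downstream of AKT. Thus 3 of 9 tested genes were called lower, where the share of all tested genes called lower was 9.68%, and 1 of 9 was called higher, against 11.1%. The 9 genes had a median log2 fold change of -0.34, against -0.01 over all tested genes. Every tunicamycin array lay below the controls of its own time for Irs1, Pik3r1, Akt2 and Slc2a4, which held for 18.8% of tested genes, and above them for Pik3ca and Gsk3b, which held for 20.1%. The same 4 genes, 3 lower and 1 higher, were called at 8 h, where 8.95% of tested genes were lower, 9.42% higher and 18.4% either. They were called again at 12 h, where 10.9% were lower, 10.1% higher and 21% either. At 4 h 0 of 9 were called by limma, against 0.394% of all tested genes (0.0366% lower, 0.357% higher); at an unadjusted p under 0.05 there were 2 (Pik3r1 and Akt2). Without the 8 h tunicamycin array 0 of 9 genes were called over all times, as on the 4 h and 8 h arrays alone, and without the 12 h control 2 were (Irs1 and Pik3r1); the 12 h arrays alone gave 4.

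**Figure D1:**
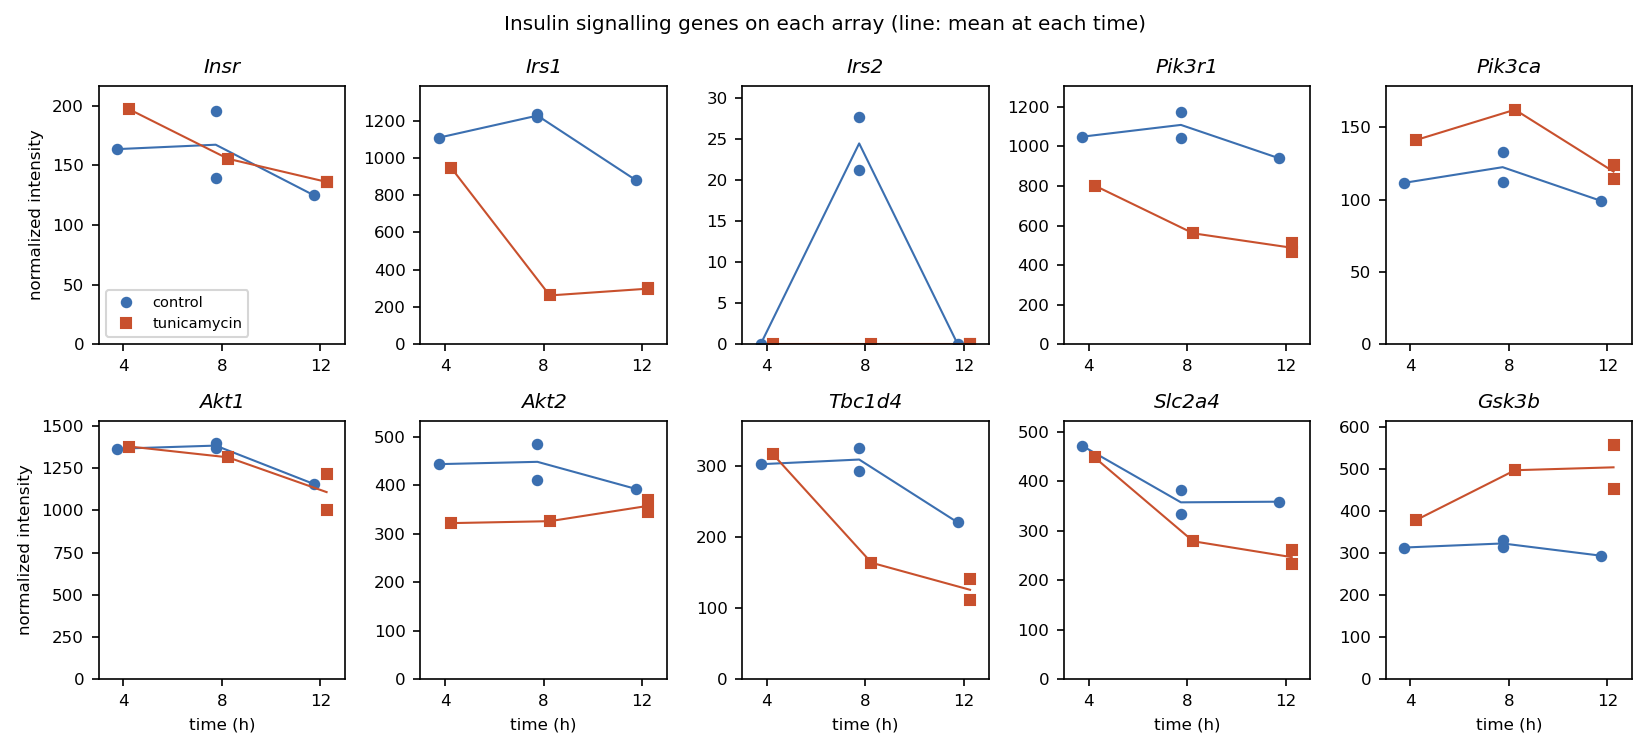
Normalized intensity of the 10 genes on each array against time in hours, with controls as circles, tunicamycin arrays as squares and lines through the mean at each time. Irs1 drops to 262 at 8 h with tunicamycin while the controls of that time stand at 1220 and 1235, and Gsk3b rises above all controls.

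The 250 bases upstream of the start are shown for them, from RefSeq on build GRCm38.p6, because these are the genes whose RNA changed. The capitals mark matches, on either strand, to 4 motifs, with no overlap between matches in the windows shown. They are the E-box CACGTG, the box bound by factor NF-Y with the letters CCAAT, the GC box with the letters GGGCGG, and the cAMP response element TGACGTCA. A match is a string of letters, not a shown binding site.
Irs1, chr1:82291440-82291689, minus strand: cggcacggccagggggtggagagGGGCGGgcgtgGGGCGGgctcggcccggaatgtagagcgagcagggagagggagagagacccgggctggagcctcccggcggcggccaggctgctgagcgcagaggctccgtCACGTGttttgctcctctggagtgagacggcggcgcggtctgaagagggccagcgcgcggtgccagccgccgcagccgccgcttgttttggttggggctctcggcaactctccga
Pik3r1, chr13:101768218-101768467, minus strand: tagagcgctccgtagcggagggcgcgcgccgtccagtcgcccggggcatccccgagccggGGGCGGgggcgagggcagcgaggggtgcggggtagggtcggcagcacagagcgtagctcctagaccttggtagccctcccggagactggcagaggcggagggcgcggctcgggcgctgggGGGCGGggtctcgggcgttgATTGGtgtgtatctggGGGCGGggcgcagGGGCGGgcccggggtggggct
Tbc1d4, chr14:101609192-101609441, minus strand: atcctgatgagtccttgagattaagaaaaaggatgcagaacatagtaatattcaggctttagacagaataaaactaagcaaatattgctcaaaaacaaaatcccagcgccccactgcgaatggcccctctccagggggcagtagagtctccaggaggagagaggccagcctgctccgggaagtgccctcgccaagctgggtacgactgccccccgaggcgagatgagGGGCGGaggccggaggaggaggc
Gsk3b, chr16:38088751-38089000, plus strand: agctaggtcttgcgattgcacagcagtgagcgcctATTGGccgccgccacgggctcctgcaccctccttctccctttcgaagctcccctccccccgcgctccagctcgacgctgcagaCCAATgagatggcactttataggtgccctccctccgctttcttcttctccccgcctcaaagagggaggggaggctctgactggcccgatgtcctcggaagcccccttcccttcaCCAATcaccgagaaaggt
Irs1 held 1 CACGTG, starting 115 bases before the start, and 2 GGGCGG. Pik3r1 held 4 GGGCGG and 1 CCAAT at the start shown and none of the 4 motifs at its other listed start. Tbc1d4 held 1 GGGCGG. Gsk3b, the gene that rose, held 3 CCAAT and no other motif of the 4. Of 32851 promoters of this length in the table, 6.02% held CACGTG, 33.85% CCAAT, 32.7% GGGCGG and 1.55% TGACGTCA. In all, 8 of the 10 genes had a promoter in the table. Irs2, which was not tested, held 1 CACGTG, 2 CCAAT and 1 GGGCGG. Among genes not called, Pik3ca held 1 GGGCGG, Akt1 4 at 1 of its listed starts and Akt2 1 at 1 of its starts. The windows shown had a GC content of 72.4% (Irs1), 76.4% (Pik3r1), 54.8% (Tbc1d4) and 62% (Gsk3b), against a median of 52.4% over all promoters. A link between the motifs and the changes was not tested.

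At the top of the pathway, RNA for the insulin receptor was not called. Insr stood at 164 in the 4 h control, 139 and 195 in the 8 h controls and 125 in the 12 h control, and at 197, 156, 136 and 136 on the tunicamycin arrays at 4 h, 8 h and 12 h (both replicates). The groups overlapped, and the highest and second highest values came from opposite groups. The log2 fold change over all times was 0.09 (SE 0.145, adjusted p = 0.712), with a 95% interval from -0.24 to 0.41, which leaves room for a modest change either way. Its sign turned to -0.20 with the deposited scaling. The other Insr probe sets, 1421380_at and 1450225_at, did not pass the filter and stayed at 30.8 or below.

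The docking protein gene Irs1 had the lowest log2 fold change of the 9 tested genes. Irs1 had only 1 probe set, 1423104_at, so taking the mean of all probe sets left its own values unchanged. Its intensity was 1109 in the 4 h control, 1220 and 1235 in the 8 h controls and 880.4 in the 12 h control. On the tunicamycin arrays it was 947 at 4 h, 262 at 8 h, and 302 and 295 at 12 h. The 4 h tunicamycin array thus lay above the 12 h control, while the 8 h and 12 h arrays lay far below every control. At 8 h Irs1 was at 21.4% of the control mean, or -2.21 on the log2 scale (SE 0.131, adjusted p = 5.38e-05), which ranked 30 from the lowest among 10916 genes. At 12 h it was at 33.9% of the control, or -1.55 (SE 0.131, adjusted p = 0.00022). At 4 h the value was -0.23 (SE 0.151, adjusted p = 0.648). Irs1 was also the only one of the 9 genes whose effect differed between times by limma's F test (adjusted p = 0.0205), where 1.72% of tested genes were called. That call was lost in 5 settings, without either 8 h control (adjusted p = 0.0696 and 0.0689), with the mean of all probe sets (0.0818), with no variance trend (0.286) and with the deposited scaling (1). The effect at 8 h minus that at 4 h was -1.99 on the log2 scale ( SE 0.201, adjusted p = 0.018), and the effect at 12 h was also below it (-1.32, SE 0.201, adjusted p = 0.0169). Between 8 h and 12 h the difference was 0.66 (SE 0.186, adjusted p = 0.27). Over all times the log2 fold change was -1.43 (SE 0.268, adjusted p = 0.00642). That call was lost without a filter (limma, adjusted p = 0.0954), on the 4 h and 8 h arrays alone (0.0803) and without the 8 h tunicamycin array, where the value was -0.98 (0.0693). With the deposited scaling the calls at 8 h and 12 h were lost (limma, adjusted p = 0.266 and 0.323).

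Irs2, the other main docking protein of insulin target cells, was not measurable with its probe set, 1443969_at. It was listed at 21.2 and 27.8 in the 8 h controls and at 0 on the other 6 arrays, so no fold and no test are given.

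Of the PI3 kinase genes, the regulatory subunit fell and the catalytic subunit was not called. Pik3r1 encodes the p85 alpha regulatory subunit, which holds the catalytic subunit and docks it on IRS proteins. It stood at 1049 in the 4 h control, 1044 and 1173 in the 8 h controls and 939 in the 12 h control, and at 802, 561, 464 and 512 on the tunicamycin arrays at 4 h, 8 h and 12 h (both replicates). No tunicamycin array reached the lowest control; such a split, downward, was seen in 10.1% of tested genes. Pik3r1 fell by 0.80 over all times (SE 0.127, adjusted p = 0.0033), by 0.98 at 8 h (SE 0.143, adjusted p = 0.00283) and by 0.94 at 12 h (SE 0.143, adjusted p = 0.00272). At 4 h its value was -0.39 (SE 0.165, adjusted p = 0.449). The call over all times was lost without the 8 h tunicamycin array (limma, adjusted p = 0.0501) and on the 4 h and 8 h arrays alone (0.0527), and those at 8 h and 12 h without a filter (0.0782 and 0.0715) or with the deposited scaling (0.9999 and 0.8002).

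All 4 Pik3r1 probe sets passed the filter and all 4 were called lower in a fit over 19169 probe sets, where 7.64% were called lower. Over all members 5 of 24 probe sets were called lower and 1 higher, against 7.96% called higher and 15.6% either way. Besides 1438682_at, which stands for the gene, 1425514_at stood at -0.84 (SE 0.173, adjusted p = 0.0132), 1425515_at at -1.01 (SE 0.167, adjusted p = 0.00606) and 1451737_at at -1.10 (SE 0.246, adjusted p = 0.0177). The 4 probe sets measure RNA of 1 gene in the same samples and are not independent. Their size at each time was not alike: 1451737_at had fitted values of -1.09 at 4 h, -1.75 at 8 h and -0.47 at 12 h. That probe set read 122, 136, 115 and 77.8 in the controls (4 h, 8 h, 8 h, 12 h) and 55.7, 35.3, 46 and 66.1 with tunicamycin, so its 12 h control was well under the others. Without the 8 h tunicamycin array 0 of the 24 probe sets of these genes that passed the filter were called over all times.

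Pik3ca encodes the p110 alpha catalytic subunit. It was at 112 in the 4 h control, 112 and 133 at 8 h and 99.1 at 12 h, and at 141, 162, 115 and 124 with tunicamycin. Each tunicamycin array was above the controls of its own time, yet the groups overlapped across times, and the log2 fold change of 0.33 (SE 0.127) missed the threshold (limma, adjusted p = 0.0924). Its interval ran from 0.05 to 0.62. Of the 4 other Pik3ca probe sets that passed the filter, 3 were above 0 and 1, 1453134_at, was at -0.23, and 0 were called (limma, adjusted p from 0.283 to 0.673; 0 also at an unadjusted p under 0.05).

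Neither AKT gene was called by its brightest probe set, while another Akt2 probe set, described further on, was called lower at 8 h. Akt1 was at 1365 in the 4 h control, 1370 and 1397 at 8 h and 1155 at 12 h, and at 1378, 1314, 1217 and 999 with tunicamycin, in groups that overlapped. Its log2 fold change was -0.05 (SE 0.0969, adjusted p = 0.766), with an interval from -0.26 to 0.17. Akt2, the form needed for insulin-driven glucose uptake in fat cells, was at 444, 411, 485 and 392 in the controls and at 322, 326, 370 and 345 with tunicamycin. All 4 tunicamycin arrays lay below all 4 controls, as in 10.1% of tested genes. The log2 fold change of -0.34 (SE 0.119) was not called (limma, adjusted p = 0.0709). The values at 4 h, 8 h and 12 h were -0.46, -0.45 and -0.13, and a difference between them was not called by the F test (adjusted p = 0.626).

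Tbc1d4 encodes AS160, the GTPase-activating protein that keeps GLUT4 vesicles inside the cell until AKT phosphorylates it. It was at 303 in the 4 h control, 292 and 326 at 8 h and 221 at 12 h. With tunicamycin it was at 317 at 4 h, 164 at 8 h, and 111 and 140 at 12 h. The 4 h array was among the highest values, and the 3 later arrays lay below all controls. Tbc1d4 fell by 0.90 at 8 h (SE 0.194, adjusted p = 0.0147) and by 0.81 at 12 h (SE 0.194, adjusted p = 0.0209), and the value at 4 h was 0.06 (SE 0.224, adjusted p = 0.959). Over all times the log2 fold change was -0.60 (SE 0.18, adjusted p = 0.0405), and a difference between the 3 times was not called by limma's F test (adjusted p = 0.204, unadjusted 0.0223). The effect at 8 h minus that at 4 h was -0.97 (SE 0.296, adjusted p = 0.203). The call over all times was lost in 14 of 20 other settings (limma, adjusted p up to 0.263), which included the removal of any 1 array at 8 h or 12 h, and the value was -0.43 without the 8 h tunicamycin array. The call at 8 h was lost without either 8 h control (adjusted p = 0.0515 and 0.0826) and that at 12 h without tunicamycin 12 h replicate 1 (0.0534).

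Slc2a4 encodes GLUT4 itself. It was at 471 in the 4 h control, 333 and 382 at 8 h and 359 at 12 h, and at 448, 279, 260.3 and 233 with tunicamycin. The 4 h pair was higher than all other arrays in both groups, so across times the groups overlapped, while within each time tunicamycin was lower. The log2 fold change was -0.34 over all times (SE 0.124, adjusted p = 0.077), and the steps from 4 h to 12 h read -0.07, -0.35 and -0.54 (adjusted p = 0.943, 0.187 and 0.0512). A difference between these 3 values was not called by the F test (adjusted p = 0.55). Slc2a4 was called over all times without either 4 h array (-0.45, limma, adjusted p = 0.0295 and 0.0294), and at 12 h with median centring, the 60th percentile filter or a pseudocount of 16 (adjusted p = 0.0258, 0.0359 and 0.0479).

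Gsk3b was the only one of the 9 tested genes called higher. It encodes a kinase that holds glycogen synthase inactive until AKT phosphorylates it. It was at 314 in the 4 h control, 332 and 315 at 8 h and 294 at 12 h, and at 380, 498, 557 and 453 with tunicamycin. Every tunicamycin array was above every control, as in 13.3% of tested genes. Gsk3b rose by 0.58 over all times (SE 0.128, adjusted p = 0.013), by 0.62 at 8 h (SE 0.17, adjusted p = 0.0383) and by 0.77 at 12 h (SE 0.17, adjusted p = 0.0152), and its value at 4 h was 0.27 (adjusted p = 0.675). Over all times the 4 other Gsk3b probe sets that passed the filter pointed the same way, from 0.16 to 0.40. Of them 0 were called (limma, adjusted p from 0.398 to 0.745), and 0 also at an unadjusted p under 0.05. Each of the 4 was below 0 at some single time, such as -0.65 at 4 h for 1451020_at. The call over all times was lost in 6 of 20 other settings, with the deposited scaling (0.29, adjusted p = 0.629), no filter (0.0681), the mean of all probe sets (0.112), the 4 h and 8 h arrays alone (0.101), and with the 8 h tunicamycin array (0.0952) or, separately, the 12 h control (0.0836) removed. The call at 8 h was lost without either 8 h control (0.119 and 0.16). For both Tbc1d4 and Gsk3b the calls at 8 h and 12 h were also lost with the deposited scaling, no filter, the mean of all probe sets or no variance trend.

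**Figure D2:**
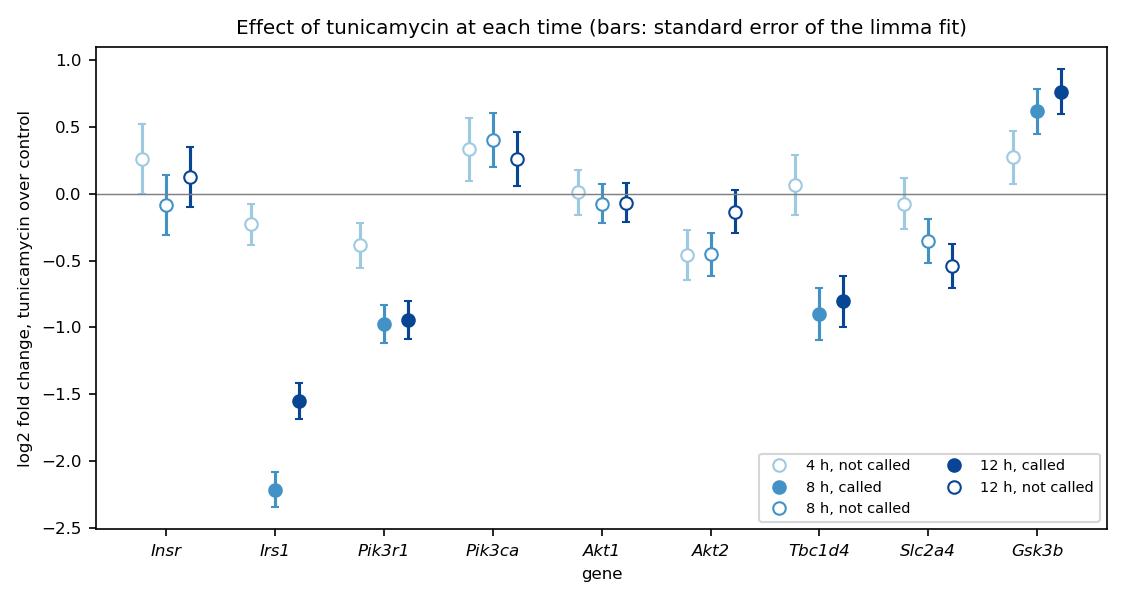
Log2 fold change of tunicamycin over control at 4 h, 8 h and 12 h for the 9 tested genes, with bars of 1 standard error and filled points for calls. No 4 h point is filled, and Irs1, Pik3r1, Tbc1d4 and Gsk3b are filled at both 8 h and 12 h.

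**Figure D3:**
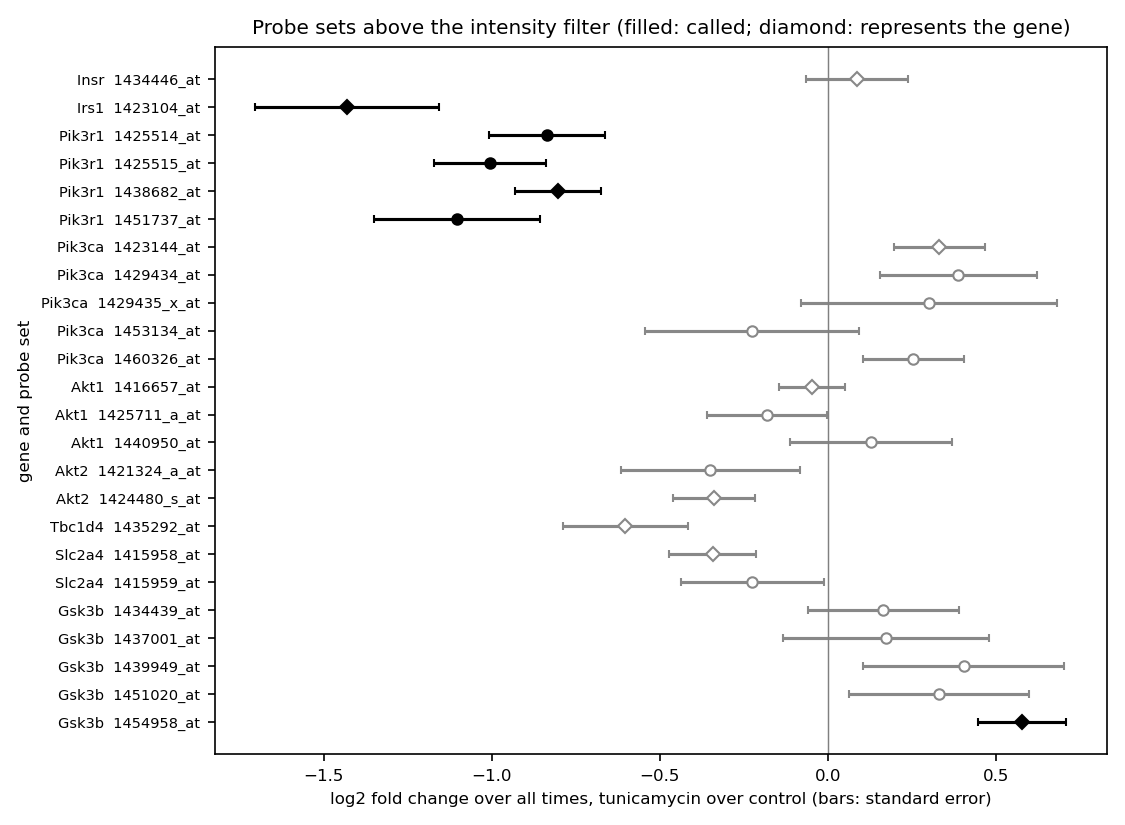
Log2 fold change over all times with its standard error for the 24 probe sets of these genes above the intensity filter, filled where called over all probe sets. The 4 Pik3r1 probe sets lie together below 0, from -0.80 to -1.10, and of the Gsk3b probe sets only 1454958_at is filled.

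The fitted values of probe sets of 1 gene took different time courses for Akt1, Akt2 and Slc2a4, a pattern picked out after the values were seen. It was not limited to these genes. No test compared probe sets with each other. For the filtered probe sets of Akt1, Akt2 and Slc2a4, limma's F test called no difference between times (adjusted p from 0.111 to 0.967). At 4 h, 8 h and 12 h Gsk3b 1451020_at had fitted values of -0.65, 0.70 and 0.69, and Pik3ca 1453134_at had -0.07, 0.37 and -0.94, none of them called. For Akt2, 1421324_a_at read 135, 159, 158 and 93.5 in the controls (4 h, 8 h, 8 h, 12 h) and 76, 79.9, 140 and 148 with tunicamycin. It was low with tunicamycin at 4 h and 8 h and above the control at 12 h. Its fitted values were -0.80, -0.97 and 0.61, and over all probe sets the value at 8 h was called (limma, adjusted p = 0.0233) while those at 4 h and 12 h were not (0.295 and 0.0893). The F test of a difference between times gave an adjusted p of 0.111. For Slc2a4, 1415959_at read 193, 267, 222 and 138 in the controls and 123, 158, 201 and 184 with tunicamycin, again with the order of the groups turned at 12 h. Its values of -0.64, -0.61 and 0.47, none of them called (limma, adjusted p = 0.41, 0.0909 and 0.16), had the opposite sign to 1415958_at at 12 h, and with the mean of both probe sets Slc2a4 stood at -0.03 at 12 h. For Akt1, 1425711_a_at had values of -0.52, -0.17 and 0.06 (limma, adjusted p from 0.646 to 0.915), while 1440950_at, also of Akt1, had -0.55, 0.63 and 0.13 (adjusted p from 0.271 to 0.832). The SE of these Akt1 values ran from 0.28 to 0.38. The 3' to 5' ratio of pyruvate carboxylase was, for these arrays, at 43.5 in the 4 h tunicamycin array and 19.8 at 8 h, both above the controls of their time (13.1, and 12.2 and 15.3), and 12.6 and 6.74 at 12 h, below the control (13.9). That of beta-actin was above the controls of its time on every tunicamycin array, at 2.81 against 1.82 at 4 h, 1.68 against 1.54 and 1.57 at 8 h, and 1.71 and 1.67 against 1.51 at 12 h. That of GAPDH was 1.11 against 0.936 at 4 h, 0.971 against 0.857 and 0.873 at 8 h, and 0.902 and 0.817 against 0.909 at 12 h. The part of RNA quality in these values was not tested, and the sources used here do not give where along the transcripts these probe sets lie.

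**Figure D4:**
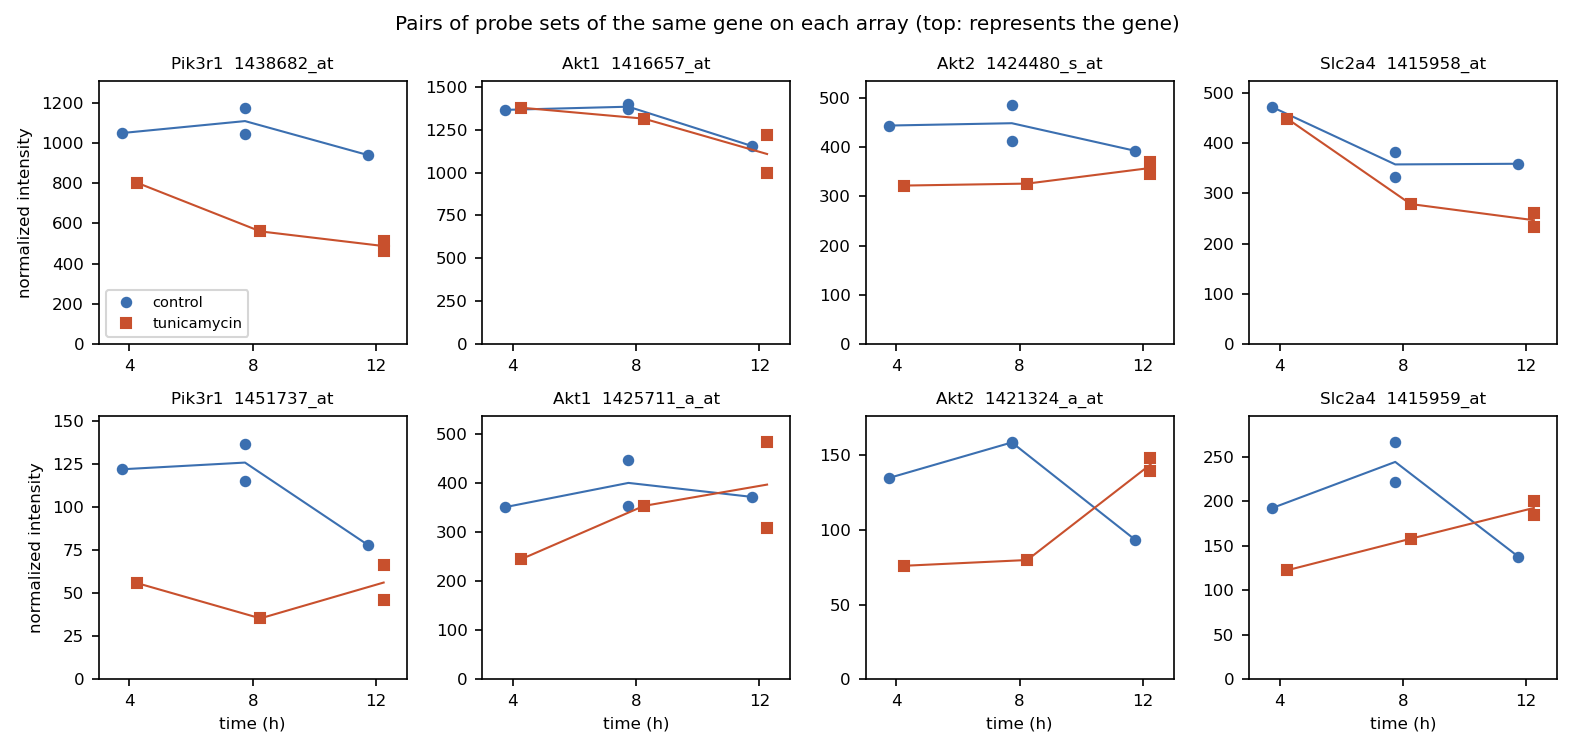
Normalized intensity against time in hours for pairs of probe sets of Pik3r1, Akt1, Akt2 and Slc2a4, controls as circles and tunicamycin arrays as squares, with the probe set that stands for the gene on top. Below it is the other probe set above the filter with the highest effect at 12 h minus that at 8 h. This choice favours a late rise with tunicamycin. In the lower panels of Akt2 and Slc2a4 the tunicamycin line crosses above the control at 12 h.

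The authors' deposited tables of tunicamycin and control ratios give a log10 ratio and a p per probe set at each time. They do not state the direction, which was read as higher with tunicamycin when above 0 because across genes the ratios correlated with the differences above at r = 0.816, 0.926 and 0.915 at 4 h, 8 h and 12 h. In the authors' deposited table the log10 ratio of Irs1 was 0.00134 at 4 h (p = 0.968), -0.616 at 8 h and -0.522 at 12 h, both listed with a p of 0. For Pik3r1 the authors' deposited table gave -0.0501, -0.25 and -0.253, and for Tbc1d4 -0.0371, -0.269 and -0.268. Gsk3b stood at 0.0963, 0.192 and 0.167 in the authors' deposited table. The Slc2a4 probe sets disagreed there too: at 12 h the authors' deposited table listed -0.0701 (p = 0.196) for 1415958_at and 0.149 (p = 0.00962) for 1415959_at. These tables come from the same samples and are no independent measurement.

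Beside these 10 genes, 99 other genes of the insulin pathway in 7 lists were examined, of which 80 were tested. Over all times 9 rose and 9 fell, against 11.1% of all tested genes called higher and 9.68% called lower. In all 18 of the 80 were called, against 20.7%. Their median log2 fold change was 0.00 against -0.01 for all tested genes, a share and a median near the background. At 4 h, 1 of the 80 was called higher and 0 lower (0.357% and 0.0366% of all tested genes). At 8 h, 7 were higher and 7 lower (9.42% and 8.95%), and at 12 h, 10 and 11 (10.1% and 10.9%). The F test of a difference between times called 1, against 1.72%.

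**Figure D5:**
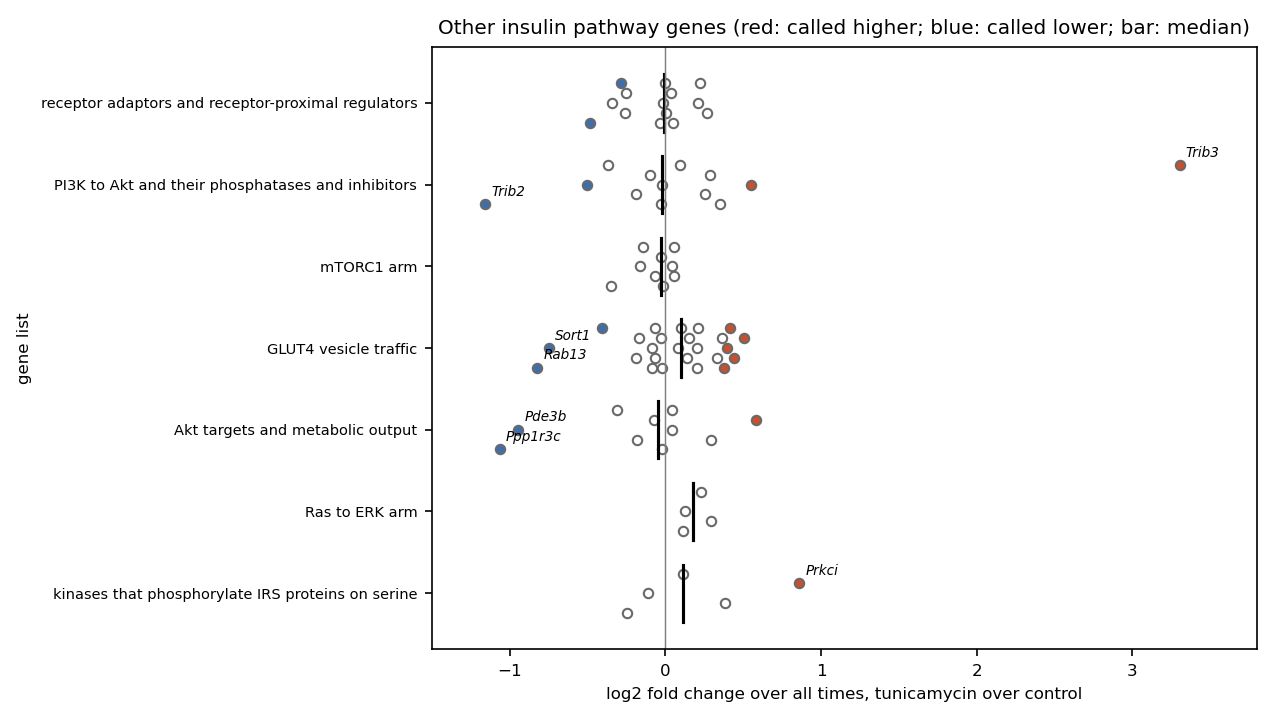
Log2 fold change over all times for the 80 tested genes of the 7 other insulin pathway lists, 1 point a gene, red where called higher, blue where called lower, with a bar at each list's median. Trib3 stands far to the right at 3.30, and the other called genes lie between -1.16 and 0.86.

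Among the genes around the receptor, 0 of 14 rose and 2 fell, with a median of -0.01. Unless a time is named, the counts of this and each later list are over all times. Beside them stand the shares of all tested genes, 11.1% higher and 9.68% lower. Socs3, which encodes an inhibitor that binds the receptor and IRS proteins, fell by 0.48 (SE 0.142, adjusted p = 0.038), and Cav1, the caveolin of the membrane pits that hold the receptor in fat cells, fell by 0.29 (SE 0.0726, adjusted p = 0.0217). In the list from PI3 kinase to AKT, 2 of 13 rose and 2 fell, with a median of -0.02. Trib3, a pseudokinase reported to bind AKT and a known target of the ER stress response, went from 172 to 239 in controls to 1529 to 2452 with tunicamycin, a difference of 3.30 on the log2 scale (SE 0.161, adjusted p = 4.38e-06). Phlpp1, a phosphatase acting on AKT, rose by 0.55 (SE 0.128, adjusted p = 0.0153). Trib2, a relative of Trib3, fell by 1.16 (SE 0.257, adjusted p = 0.0128), and Inpp5k, a lipid phosphatase, by 0.50 (SE 0.147, adjusted p = 0.0374).

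Of 25 genes of GLUT4 vesicle traffic, 5 rose and 3 fell, against 11.1% and 9.68% of all tested genes, with a median of 0.10. Rab13, a small GTPase, fell by 0.82 (SE 0.152, adjusted p = 0.00602), and Sort1, which encodes sortilin, a sorting receptor of GLUT4 vesicles, by 0.75 (SE 0.207, adjusted p = 0.0311). Ehd1, an endocytic recycling protein, rose by 0.50 (SE 0.13, adjusted p = 0.0239) and Rab5a, a GTPase of early endosomes, by 0.44 (SE 0.105, adjusted p = 0.0174). Among 10 AKT targets and genes of metabolic output, 1 rose and 2 fell, with a median of -0.05. Ppp1r3c, a subunit that brings a phosphatase to glycogen, fell by 1.06 (SE 0.249, adjusted p = 0.0159) and Pde3b, the phosphodiesterase by which insulin restrains lipolysis, by 0.94 (SE 0.23, adjusted p = 0.0191), both with the 4 h tunicamycin array not below its control. Gys1, the muscle-type glycogen synthase that GSK3 inhibits, rose by 0.58 (SE 0.153, adjusted p = 0.0257). Of 9 mTORC1 genes and 4 genes from Ras to ERK, 0 were called by limma over all times (1 in each list, Deptor and Sos1, at an unadjusted p under 0.05), with medians of -0.03 and 0.18. At 12 h 1 mTORC1 gene was called lower, against 10.9% of all tested genes. Of 5 kinases that phosphorylate IRS proteins on serine 1 rose: Prkci, an atypical protein kinase C, by 0.86 (SE 0.13, adjusted p = 0.00274). Of these 5, 2 were called higher at 8 h (9.42% of all tested genes). At 12 h 2 were called higher and 1 lower (10.1% and 10.9%).

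Of the genes named in these lists, Trib3 kept its call in all 20 other settings. The removal of the 8 h tunicamycin array ended the calls of Socs3, Cav1, Phlpp1, Trib2, Inpp5k, Sort1, Ehd1, Rab5a, Ppp1r3c, Pde3b and Gys1 (limma, adjusted p up to 0.234). The removal of the 12 h control ended the same calls except that of Rab5a (adjusted p up to 0.202). Socs3, Cav1, Inpp5k, Sort1, Ehd1 and Gys1 also lost their call without other single arrays, and Rab5a and Pde3b without control 8 h replicate 2. Rab13 and Prkci kept their call whichever of the 8 arrays was removed. Rab13 lost it with no filter (adjusted p = 0.0611) and on the 4 h and 8 h arrays alone (0.058), and Prkci with the deposited scaling (0.278) and the mean of all probe sets (0.0839). The deposited scaling also ended the calls of Socs3, Cav1, Phlpp1, Inpp5k, Ehd1, Rab5a and Gys1 (limma, adjusted p up to 0.836). With no filter Socs3, Cav1, Trib2, Inpp5k, Sort1, Ehd1, Rab5a, Ppp1r3c, Pde3b and Gys1 lost theirs (up to 0.17). The mean of all probe sets ended those of Trib2, Inpp5k, Sort1 and Gys1 (up to 0.401). No variance trend ended those of Socs3, Cav1, Inpp5k, Sort1, Ehd1, Rab5a, Ppp1r3c, Pde3b and Gys1 (up to 0.104).

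The genes whose log2 values over the 8 arrays were most like those of 3 members were found by Pearson correlation. For Irs1 they were Fbxo45 (r = 0.995), Ppp2r1b (r = 0.993) and Tnfaip8 (r = 0.993). Nearest to Pik3r1 were Nt5dc2 (r = 0.993), Fam241a (r = 0.991) and Mcam (r = 0.991). Nearest to Slc2a4 were Tle3 (r = 0.971), Cavin1 (r = 0.968) and Cep55 (r = 0.967). The 8 points of each correlation share the treatment, the time and the array, and the 9 genes were picked for being most alike among all tested genes.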

How the data were processed

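RNA of 8 samples was hybridised to 1 Affymetrix array each. The authors deposited one linear intensity per probe set and array, and the sources used here do not name the scaling software; array medians ran from 9.56 to 22.03 and 19.25 to 20.9% of values were at or below 0. The authors also deposited tables of log10 ratios with p-values per probe set, used only where named. Because medians differed by 1.20 on the log2 scale, intensities were quantile normalized, and log2(value + 2.956) was tested, so folds of dim genes are understated. Platform annotation, updated through RefSeq, gave 34958 probe sets 1 symbol, 932 several and 9211 none; 18194 genes were represented by their brightest probe set, and 10916 passed a mean log2 of 4.19. limma 3.58.1 in R 4.3.3 fitted treatment plus time (4 residual degrees of freedom), or 6 groups for single times and the F test (2), with trended variance and Benjamini-Hochberg adjustment; plots were drawn with Python 3.11.15 and its library matplotlib 3.10.9. The fits were run on simulated data with independent noise and a treatment effect constant over time. That check does not cover differences in quality between arrays or effects that change with time. The labels call replicates biological without naming separate cultures, so p-values may measure technical spread. Of 6 groups 2 had 2 arrays, control at 8 h and tunicamycin at 12 h. Their differences of replicate 1 minus replicate 2 correlated at r = 0.03 over 10916 genes. These groups differ in treatment and time, so this cannot tell whether the numbers pair samples within a time. The members and lists were chosen with earlier results of these data known. Named were all members, every called gene of a pathway list up to 4 or else the 4 with the largest change, the 3 genes most correlated with Irs1, Pik3r1 and Slc2a4, and 3 stress genes. Alternatives were other scalings, pseudocounts, filters and probe set rules, no variance trend, a replicate block, single times and each array left out. For the single-time tests and the F test only arrays of control at 8 h and tunicamycin at 12 h were left out. Some genes of the pathway lists are not reported here.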

Additional observations from a re-analysis of the deposited data

Results flagged for a closer look

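Irs1 stood out among the 9 tested genes because its response to tunicamycin differed between the times by a test of the difference itself (limma's F test, adjusted p = 0.0205). Its log2 fold change was -0.23 at 4 h, -2.21 at 8 h and -1.55 at 12 h. The call was lost without control 8 h replicate 1 (adjusted p = 0.0696) or replicate 2 (0.0689), with the mean of all probe sets (0.0818), without a variance trend (0.286) and with the deposited scaling (1), and the F test over probe sets gave an adjusted p of 0.0727. Irs1 had only 1 probe set, so the mean of all probe sets left its own values unchanged. The 4 h values rest on 1 array in each group. No group held 4 or more arrays, so single arrays were not tested as outliers.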

How the results depend on the processing

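With 1 or 2 arrays a group, 1 array could decide a call. At single times and in the F test only an array of control at 8 h or tunicamycin at 12 h was left out. The ranges there do not cover the removal of an array that stood alone in its group. Over all times 2264 genes and 4 members were called. The counts were 850 and 2 with the deposited scaling (143 genes higher and 707 lower, against 1207 and 1057, with the median of all genes moved by -0.30), 578 and 1 with no filter, 1466 and 2 with the mean of all probe sets, 1467 genes with no variance trend, and 487 and 0 on the 4 h and 8 h arrays alone. With 1 array left out they ran from 374 to 2948 genes and 0 to 5 members, 0 without the 8 h tunicamycin array. Of these genes' probe sets 6 were called, 0 with no filter, 3 on the 4 h and 8 h arrays, 3 on the 12 h arrays, and 0 to 8 with 1 array left out. At 4 h 43 genes were called, 4 with the deposited scaling (median moved by -0.54), 133 with no filter, 85 with the 60th percentile filter, 11 with the mean of probe sets, 0 with no trend, and 22 to 27 with 1 array left out, with 0 members in each. At 8 h 2005 genes and 4 members were called, 39 and 0 with the deposited scaling, 307 and 2 with no filter, 1122 and 2 with the mean of probe sets, 717 and 2 with no trend, and 943 to 2303 and 2 to 4 with 1 array left out. At 12 h 2295 and 4 were called, 74 and 0 with the deposited scaling (median moved by -0.38), 637 and 1 with no filter, 1309 and 2 with the mean of probe sets, 1108 and 2 with no trend, and 1724 to 2086 and 3 to 4 with 1 array left out. For the F test 188 genes and 1 member became 0 and 0 with the deposited scaling, the mean of probe sets or no trend, 121 genes with median centring, 316 with the 60th percentile filter, and 7 to 104 genes and 0 to 1 member with 1 array left out.

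The values whose sign turned were not called in the reported fit. With the deposited scaling Insr was -0.20 over all times, -0.26 at 4 h and -0.26 at 12 h, Pik3ca -0.19 at 4 h and -0.15 at 12 h, and at 4 h Akt1 was -0.58, Tbc1d4 -0.46 and Gsk3b -0.26. Akt1 at 4 h was -0.0143 with median centring, -0.0493 divided by the array mean and -0.26 with the mean of probe sets, where it was 0.0974 at 8 h and 0.0298 at 12 h and Pik3ca was -0.16 at 4 h. With 1 array left out Insr at 8 h ran from -0.323 to 0.156, above 0 without control 8 h replicate 2, and Akt1 at 12 h from -0.209 to 0.0759, above 0 without tunicamycin 12 h replicate 2. The cause was not tested. With the replicate block 1837 genes and 3 members were called over all times. Tbc1d4 (limma, adjusted p = 0.052) and Inpp5k lost their calls. At single times the groups share 1 number, so no paired fit was made there. For the 9 tested genes, 570 of 648 values kept direction and side of the threshold, 57 lost a call, 5 gained one and 16 turned sign. Most of the 648 belong to results not called in the reported fit, which had no call to lose.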

Other observations

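In controls 0 of 10916 genes were called by limma between 8 h and 4 h or between 12 h and 4 h (288 and 935 at an unadjusted p under 0.05). All 9 tested insulin pathway members had values below 0 at 12 h against 4 h, such as -0.45 for Tbc1d4 and -0.39 for Slc2a4, each resting on 1 array a time, and so did 52.26% of all tested genes. The median was -0.24 for the 9 genes and -0.02 for all tested genes. Over the 8 arrays the correlation was 0.96 between Irs1 and Pik3r1, 0.93 between Irs1 and Tbc1d4 and -0.95 between Pik3r1 and Gsk3b; the points share treatment, time and array. In the authors' deposited table Akt2 stood at -0.117, -0.179 and -0.0316 at 4 h, 8 h and 12 h for the probe set that represents it, and at -0.238, -0.293 and 0.146 for 1421324_a_at.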
